A study of Mus musculus with 8 samples.

Results

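*Myh11*, *Tagln*, *Cnn1*, *Smtn*, *Myocd*, *Lmod1*, *Mylk*, *Myl9* and *Cald1* are the 9 smooth muscle contractile genes described here, chosen by name from the 46040 genes of the count table. All 9 had a row and passed the filter on low counts, as did 13542 genes in all. The filter asked for a CPM, a gene's count relative to its library total, of 1 or more in 2 or more of the 8 libraries. Normalized CPM is the same value after TMM scaling, which balances libraries of different composition. RNA came from the left ventricle (LV) of male C57BL/6 mice aged 5 to 7 months, every one of which had received angiotensin II (angII, 0.1 mg/kg/h) from a subcutaneous minipump until day 14. The study compared VEGFR-1 TK-/- mice, whose *Flt1* allele lacks the intracellular tyrosine kinase domain in every cell, with littermate controls, to learn which LV genes depend on VEGFR-1 signaling during pressure overload. Mice were perfused with PBS, and tissue came only from mice alive on day 14. There were 4 libraries named WT2 and 4 named dVEGFR1TK2. The labels disagree on which group is which. The genotype tag reads wildtype for the WT2 libraries and VEGFR1_TK -/- for the dVEGFR1TK2 libraries, while the sample titles give the opposite genotypes. Groups are called here by the library names, each log2 fold change is dVEGFR1TK2 minus WT2, and every sign turns if the titles are right.

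Library totals lay between 12349639 and 16239670 counts in WT2 and between 11449137 and 13505888 in dVEGFR1TK2. *Flt1*, the targeted gene, averaged 69.3 ± 11.3 normalized CPM in WT2 and 158 ± 13.2 in dVEGFR1TK2 (SD, n = 4 per group), with a log2 fold change of 1.19 (SE 0.12). Reads of transcripts with and without the kinase domain fall into the same count, which was not used to choose between the labels. The library names mention cardiomyocytes, and the source label names LV tissue. The 7 cardiomyocyte markers summed to between 60952 and 98350 normalized CPM per library, but the 6 endothelial markers (1172 to 1616) and the 6 fibroblast markers (676 to 2308) were also well above 0 in each library. Of 4 adipocyte markers, *Plin1* and *Lep* had no count in any library and *Adipoq* and *Cidec* had at most 3. Of 6 skeletal muscle markers, *Myh2* and *Myh4* had none and *Myh1* at most 1, *Tnnt3* and *Mylpf* lay below 2 normalized CPM in each library, and *Ckm*, which heart muscle also makes, lay between 2803 and 5725.

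Smooth muscle cells contract when calcium, bound to calmodulin, switches on myosin light chain kinase, which phosphorylates the regulatory light chain of smooth muscle myosin. Calponin, caldesmon and transgelin sit on the actin thin filament, and leiomodin helps actin filaments to form. Serum response factor (SRF) and its coactivator myocardin switch these genes on together through a DNA element named the CArG box. In the heart, contractile smooth muscle lines the coronary arteries and arterioles, while *Myocd* is also transcribed in cardiomyocytes and *Mylk* and *Cald1* in many nonmuscle cells. In bulk LV RNA, fewer cells of a type and less RNA per cell cannot be told apart.

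RefSeq promoters of GRCm38.p6, which span 250 bases before to 50 bases after a transcription start, were searched for the CArG box, the element through which SRF and myocardin act. Entries existed for 6 of the 9 genes, with 7 promoters. *Myh11*, *Tagln* and *Myocd* had no entry. The box was found in 1 of the 7 promoters, that of *Myl9*, and in 1.629% of all 32851 promoters in the table. Sequence outside these windows was not searched. The windows of *Mylk* and *Smtn* and 1 of *Cald1* lay wholly inside the annotated gene, away from its outermost start. With exactly 1 base changed, it was found in 3 of the 7, those of *Myl9* and *Lmod1* and 1 of *Cald1*, and in 19.868% of all promoters. The element reads the same class of letters on both strands, so 1 search covered both. The upstream part of the *Myl9* window that carries it is shown, up to the first annotated exon, with the box in capitals. The same part of the *Lmod1* window, which had no exact box and 2 matches with 1 base changed, is shown for comparison.
Myl9, chr2:156775214-156775419, plus strand, 206 bases: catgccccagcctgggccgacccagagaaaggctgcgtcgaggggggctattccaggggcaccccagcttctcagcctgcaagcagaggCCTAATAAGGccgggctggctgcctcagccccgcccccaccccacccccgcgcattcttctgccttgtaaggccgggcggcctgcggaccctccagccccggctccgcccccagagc
Lmod1, chr1:135324563-135324806, plus strand, 244 bases: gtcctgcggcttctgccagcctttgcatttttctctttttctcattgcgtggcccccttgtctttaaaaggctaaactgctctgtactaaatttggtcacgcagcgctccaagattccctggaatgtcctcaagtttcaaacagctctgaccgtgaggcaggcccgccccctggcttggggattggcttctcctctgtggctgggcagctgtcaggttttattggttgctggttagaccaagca
In *Myl9* the box CCTAATAAGG lay at positions -161 to -152, counted from the transcription start. A match of letters is a description and not evidence that a factor binds there.

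Levels of different genes were set side by side only per length, as normalized CPM per kilobase of annotated exon. *Myl9*, the regulatory light chain of smooth muscle myosin, stood highest at 78.3 on average over the 8 libraries. *Smtn* (smoothelin, a cytoskeletal protein named for contractile smooth muscle) followed at 54.6 and *Tagln* (transgelin) at 34.7. *Myh11*, the smooth muscle myosin heavy chain, was at 9.19, *Cald1* at 5.83, *Myocd* at 4.80, *Cnn1* at 3.56, *Mylk* at 3.52 and *Lmod1* at 1.98. The 8 libraries of neighbours in this order did not overlap between *Smtn* and *Tagln*, between *Tagln* and *Myh11*, and between *Mylk* and *Lmod1*. The ranges of all other neighbours overlapped, and their order within each library was not compared. Per kilobase of the longest transcript instead of all exons, *Cald1*, which has 18 annotated transcripts, moved from 6.23 to 15.7 in WT2 and above *Myh11* (10.7). *Mylk* (5.06 on average over the 8 libraries) then lay above *Cnn1* (4.09). The level of *Smtn* rose from 52.3 to 67.7 in WT2 without a change of rank. Averaged over the libraries on the exon scale, *Myl9* lay above 95.7% of the tested genes and *Lmod1* above 32.2%.

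None of the 9 genes was called between the groups. By edgeR's quasi-likelihood test with Benjamini-Hochberg adjustment (FDR) over all 13542 genes, with calls at an FDR under 0.1 and a fold of at least 1.5, 0.00738% of the tested genes were called, 1 gene, *Flt1*. The lowest FDR among the 9 was 0.666, and 0 of the 9 reached an unadjusted p under 0.05, against 8.96% of all tested genes (5.64% lower and 3.32% higher). DESeq2 and the likelihood ratio test also called 0 of the 9, the latter with 0.391% of all tested genes called. Groups overlapped for each of the 9, and 4.98% of all tested genes had groups without overlap. With 4 genes higher and 5 lower in dVEGFR1TK2, the median log2 fold change was -0.019, beside a median of -0.0012 over all tested genes, of which 50.3% were below 0. The median absolute log2 fold change was 0.077 for the 9 genes and 0.13 for all tested genes. For 8 of the 9 the 95% interval stayed within a 1.5-fold difference in both directions, and *Myl9* was the exception.

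**Figure D1:**
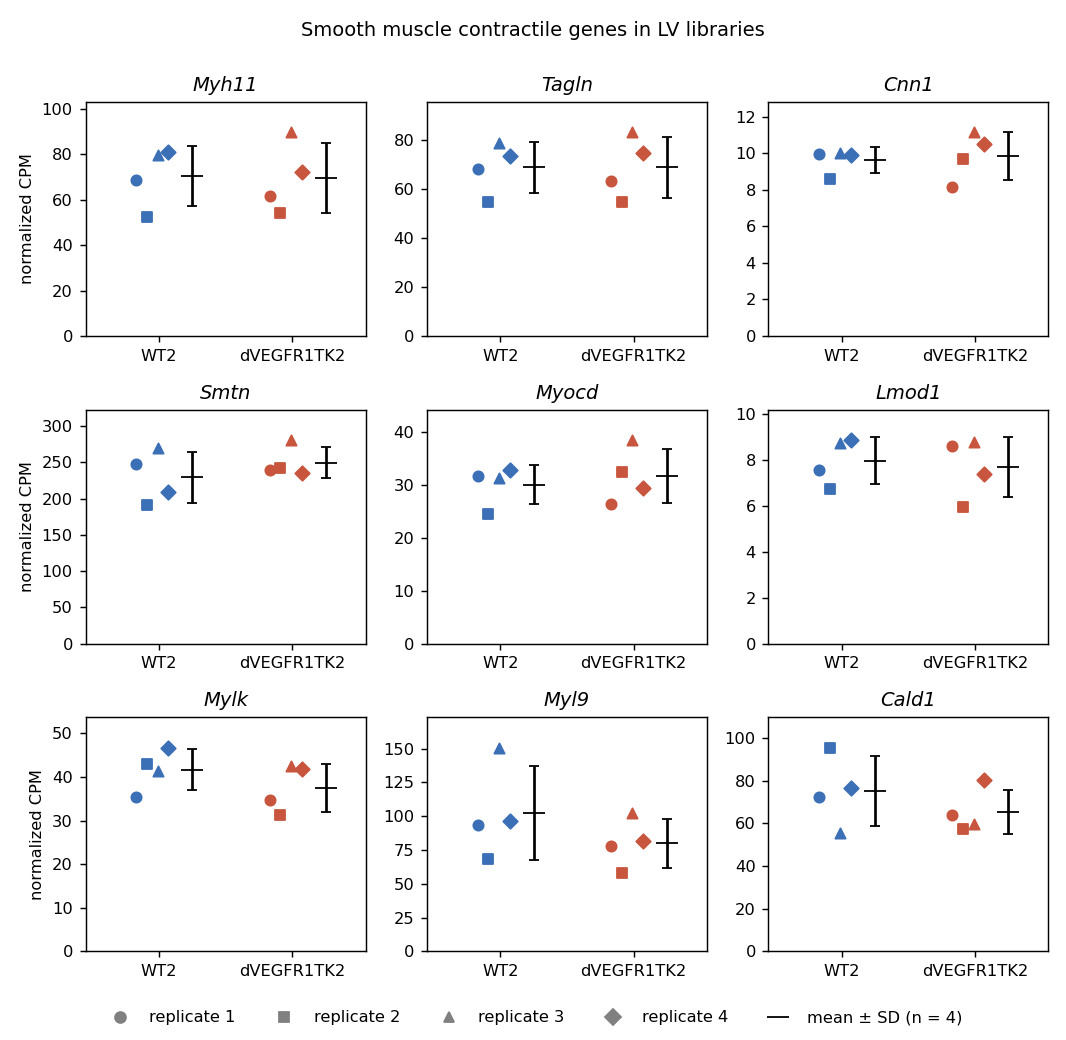
Normalized CPM (y axes, from 0) of the 9 smooth muscle contractile genes in each of the 4 WT2 and 4 dVEGFR1TK2 libraries, with 1 symbol per replicate number and the mean ± SD beside each group. The groups overlap in each panel, and replicate 3 of dVEGFR1TK2 holds the highest value for 5 of the genes.

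The motor of smooth muscle is described first. *Myh11* (ENSMUSG00000018830, chromosome 16, 14194535 to 14291372, minus strand, GRCm38) had a normalized CPM of 68.6, 52.3, 79.7 and 80.8 in WT2 replicates 1 to 4 and of 61.6, 54.2, 89.6 and 72.1 in dVEGFR1TK2 replicates 1 to 4. Replicate 2 was the lowest library in both groups, and the group means differed by far less than the replicates did. The log2 fold change was -0.019 (SE 0.17, 95% interval -0.39 to 0.35, FDR = 0.982 by the quasi-likelihood test).

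*Myl9* (ENSMUSG00000067818, chromosome 2, 156775420 to 156781658, plus strand) encodes the light chain that is phosphorylated to start contraction. It was at 93.1, 67.9, 151 and 96.7 normalized CPM in WT2 and at 77.9, 58.1, 102 and 81.5 in dVEGFR1TK2. WT2 replicate 3 stood apart at the top, while the other WT2 libraries lay among those of dVEGFR1TK2. The log2 fold change of -0.35 (SE 0.22, 95% interval -0.84 to 0.13, FDR = 0.666 by the quasi-likelihood test) was the largest among the 9 genes in size, and it did not pass the exact permutation test over all 70 ways to form groups of 4 and 4 (2-sided, p = 0.343, smallest possible 0.0286). Without WT2 replicate 3 it was -0.11.

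*Mylk* (ENSMUSG00000022836, chromosome 16, 34745210 to 35002420, plus strand) encodes the kinase that phosphorylates this light chain. Its normalized CPM was 35.4, 43.0, 41.4 and 46.7 in WT2 and 34.8, 31.2, 42.4 and 41.8 in dVEGFR1TK2. WT2 replicates 2 and 4 lay above every dVEGFR1TK2 library and WT2 replicate 1 lay below 2 of them. On the log2 scale the difference was -0.15 (SE 0.12, 95% interval -0.42 to 0.12, FDR = 0.751 by the quasi-likelihood test).

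The thin filament proteins differed in direction and in no case past the test. *Tagln* (ENSMUSG00000032085, chromosome 9, 45929619 to 45936058, minus strand) encodes an actin-binding protein that is a standard early marker of smooth muscle. It was at 68.3, 54.9, 78.8 and 73.8 normalized CPM in WT2 and at 63.4, 54.6, 83.3 and 74.7 in dVEGFR1TK2. Its group means of 68.9 and 69.0 were nearly the same, with a log2 fold change of 0.0014 (SE 0.14, 95% interval -0.31 to 0.32, FDR = 0.998 by the quasi-likelihood test). Its exons share 108 bases with *Pcsk7* on the opposite strand and 1241 bases (62.4%) with the antisense gene *Gm48529*, which has no row in the table. The strand setting of the counting is not given, so reads of such genes cannot be told apart from those of *Tagln*.

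*Cnn1* (ENSMUSG00000001349, chromosome 9, 22099216 to 22109630, plus strand), which encodes calponin, an inhibitor of the actin-activated myosin ATPase, was at 9.96, 8.57, 10.02 and 9.92 normalized CPM in WT2 and at 8.13, 9.68, 11.1 and 10.5 in dVEGFR1TK2. The WT2 libraries other than replicate 2 were almost equal, and the dVEGFR1TK2 libraries lay on both sides of them. This gave a log2 fold change of 0.04 (SE 0.13, 95% interval -0.26 to 0.33, FDR = 0.953 by the quasi-likelihood test).

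*Cald1* (ENSMUSG00000029761, chromosome 6, 34598500 to 34775473, plus strand) encodes caldesmon, which holds myosin off the thin filament and is made as a long form in smooth muscle and a short form in other cells. Counts per gene do not separate the forms. The gene was at 72.5, 95.5, 55.5 and 76.4 normalized CPM in WT2 and at 63.9, 57.3, 59.6 and 80.3 in dVEGFR1TK2. Both the highest and the lowest of the 8 libraries were in WT2, replicates 2 and 3. On the log2 scale the groups differed by -0.20 (SE 0.16, 95% interval -0.54 to 0.15, FDR = 0.739 by the quasi-likelihood test).

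*Smtn* (ENSMUSG00000020439, chromosome 11, 3517523 to 3540612, minus strand) gave 247, 191, 269 and 209.8 normalized CPM in WT2 and 239, 242, 281 and 235 in dVEGFR1TK2. All dVEGFR1TK2 libraries were above WT2 replicates 2 and 4. dVEGFR1TK2 minus WT2 was 0.12 on the log2 scale (SE 0.12, 95% interval -0.14 to 0.39, FDR = 0.798 by the quasi-likelihood test).

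*Lmod1* (ENSMUSG00000048096, chromosome 1, 135324807 to 135368065, plus strand), the leiomodin of smooth muscle, had the fewest reads of the 9, between 67 and 130 per library. Its normalized CPM was 7.56, 6.75, 8.74 and 8.88 in WT2 and 8.61, 5.95, 8.77 and 7.41 in dVEGFR1TK2. The groups overlapped over most of their ranges. The log2 fold change was -0.05 (SE 0.16, 95% interval -0.41 to 0.30, FDR = 0.946 by the quasi-likelihood test).

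*Myocd* (ENSMUSG00000020542, chromosome 11, 65176561 to 65269989, minus strand) encodes myocardin, the coactivator through which SRF drives the genes above. It was at 31.6, 24.5, 31.2 and 32.7 normalized CPM in WT2 and at 26.4, 32.3, 38.4 and 29.4 in dVEGFR1TK2. The lowest library was WT2 replicate 2 and the highest dVEGFR1TK2 replicate 3. Between the groups the log2 fold change was 0.08 (SE 0.13, 95% interval -0.21 to 0.37, FDR = 0.891 by the quasi-likelihood test).

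**Figure D2:**
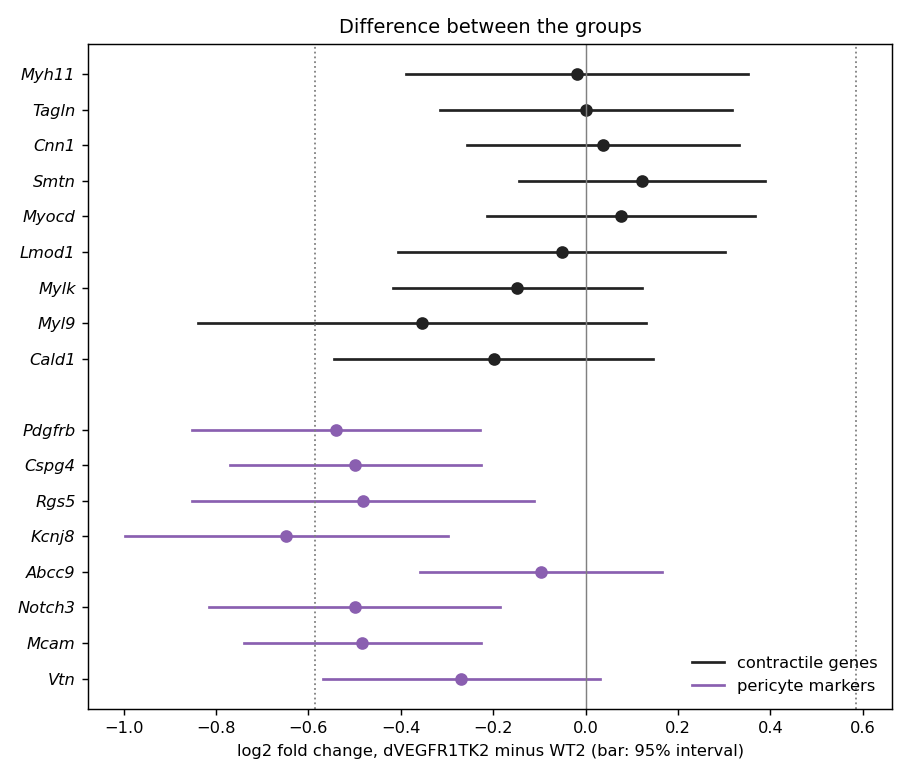
Log2 fold change (x axis, dVEGFR1TK2 minus WT2) with its 95% interval for the 9 contractile genes (black) and 8 pericyte markers (purple), with dotted lines at a 1.5-fold difference. All contractile intervals contain 0, and only that of *Myl9* among them passes a dotted line, while 6 of the 8 pericyte intervals lie below 0. The pericyte list was chosen with earlier results of these data known.

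Pericytes are mural cells of capillaries, related to smooth muscle but with little of its contractile apparatus. All 8 pericyte markers were lower in dVEGFR1TK2, 6 with an unadjusted p under 0.05 (5.64% of all tested genes were lower at that p) and 4 without overlap of the groups (2.53% of all tested genes). The quasi-likelihood test called 0 of them, and the likelihood ratio test and DESeq2 each called 1, *Kcnj8*. Their median log2 fold change was -0.49. All marker lists were chosen with earlier results of these data known, so these counts describe the values and are no independent support. *Pdgfrb*, the receptor for platelet-derived growth factor B, was at 115, 160, 146 and 136 normalized CPM in WT2 and at 109.8, 81.1, 79.8 and 112 in dVEGFR1TK2, which gave -0.54 (SE 0.14, FDR = 0.442 by the quasi-likelihood test) as its log2 fold change. *Kcnj8*, a subunit of the ATP-sensitive potassium channel, was -0.65 (SE 0.16, FDR = 0.442 by the quasi-likelihood test) on the same scale. *Abcc9* (-0.096, SE 0.12) and *Vtn* (-0.27, SE 0.14) were the pericyte markers that did not reach an unadjusted p under 0.05. Of the other cell types, 5 of 6 endothelial markers were lower, 3 with an unadjusted p under 0.05, as were 6 of 6 fibroblast markers and 4 of 5 leukocyte markers, 0 of these at that p. Of 7 cardiomyocyte markers, 5 were higher, 1 at that p. The difference between the pericyte markers and the contractile genes was not tested. The part of pericyte content in the values of the 9 genes was not tested either.

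The 9 genes varied more between libraries of a group than between the groups. The SD of log2 normalized CPM within the groups was 0.41 for *Myl9*, larger than in 86.3% of the tested genes, and 0.16 for *Cnn1*, larger than in 31.8%. Its median was 0.22 over the 9 genes and 0.21 over all tested genes. dVEGFR1TK2 replicate 3 was the highest of the 8 libraries for *Myh11*, *Tagln*, *Cnn1*, *Smtn* and *Myocd* and among the top 3 for 8 of the 9 genes. WT2 replicate 2 was the lowest for 3 genes and dVEGFR1TK2 replicate 2 for 4, and each was among the bottom 3 for 7 genes. *Cald1* went the other way, highest in WT2 replicate 2 and lowest in WT2 replicate 3. Scaled by total counts, dVEGFR1TK2 replicate 3 was the highest for 4 genes, dVEGFR1TK2 replicate 2 the lowest for 5 and WT2 replicate 2, which has the highest TMM factor (1.12), the lowest for 0. WT2 replicate 2 was still among the bottom 3 for 6 genes on that scale, and with RLE size factors it was the lowest for 4. How often these libraries were highest or lowest over all tested genes was not counted, so the pattern may not be particular to the 9 genes.

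**Figure D3:**
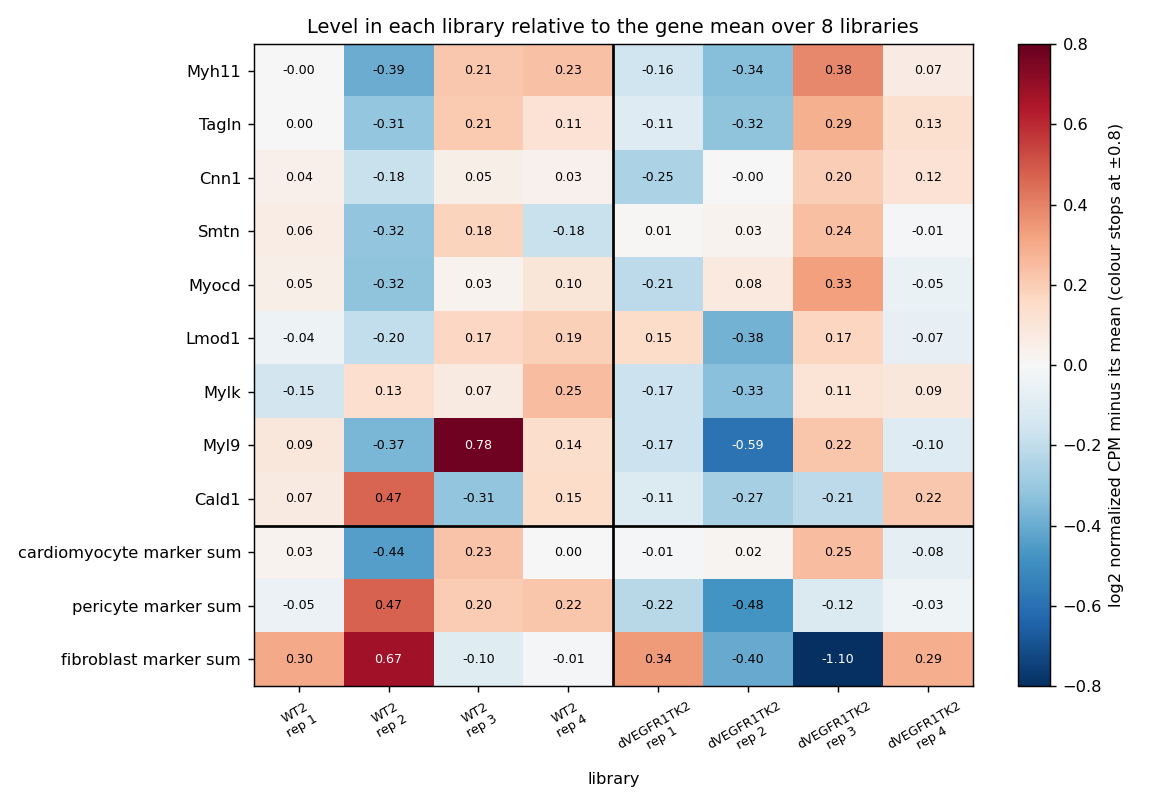
Log2 normalized CPM of each contractile gene (rows) in each library (columns) minus its mean over the 8 libraries, with the summed cardiomyocyte, pericyte and fibroblast markers below. WT2 replicate 2 is low for *Myh11* (-0.39) and for the cardiomyocyte sum (-0.44) and high for *Cald1* (0.47) and the pericyte sum (0.47), and dVEGFR1TK2 replicate 3 is high for *Myh11* (0.38) and the cardiomyocyte sum (0.25).

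Summed markers of the main cell types moved with these libraries. The cardiomyocyte sum was lowest in WT2 replicate 2, at 60952 normalized CPM, and highest in dVEGFR1TK2 replicate 3, at 98350, and it lay between 78398 and 97136 in the other libraries. The pericyte sum was highest in WT2 replicate 2 (1829) and lowest in dVEGFR1TK2 replicate 2 (947). The fibroblast sum was highest in WT2 replicate 2 (2308) and lowest in dVEGFR1TK2 replicate 3 (676). As a measure chosen after the values were seen, the SD over the 8 libraries of the log2 ratio between a gene and a marker sum was taken, which is small when both keep a constant ratio. Among the cardiomyocyte, pericyte, endothelial, fibroblast and leukocyte sums, that to the cardiomyocyte sum was the smallest for 7 of the 9 genes and for 41.1% of all 13523 genes compared. It was 0.090 for *Smtn*, 0.13 for *Myocd*, 0.17 for *Tagln* and *Cnn1*, 0.19 for *Myh11* and 0.21 for *Lmod1*, beside a median of 0.31 over all genes. For *Myl9*, the last of the 7, it was 0.32, above that median. *Mylk* was nearest to the endothelial sum (0.16) and *Cald1* to the pericyte sum (0.24). The part of cell composition in these ratios was not tested.

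**Figure D4:**
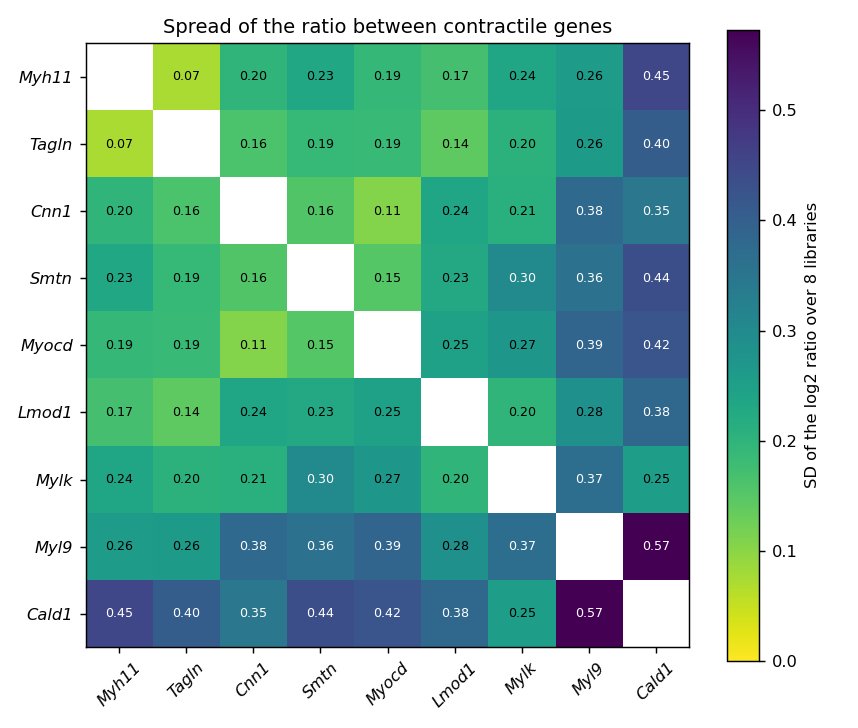
SD over the 8 libraries of the log2 ratio between each pair of the 9 contractile genes, from 0 (yellow) to 0.57 (dark). *Myh11* with *Tagln* has the smallest value (0.073), and the *Cald1* row and the *Myl9* row hold the largest.

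The same measure was taken for the 36 pairs of the 9 genes, where the scaling of a library cancels. *Myh11* and *Tagln* had the smallest SD of these pairs, 0.073, close to the 0.069 that counting error alone gives for their reads. *Myh11* per *Tagln* lay between 0.951 and 1.09 in all 8 libraries, although each gene varied by 1.5-fold or more between the libraries. Of 13522 genes compared with *Tagln*, none had a smaller SD than *Myh11*, and of those compared with *Myh11* only *Mpped2* (0.070, below its counting error of 0.14) was nearer than *Tagln*. Next to *Tagln* came *Sfpq* (0.082), *Shb* (0.083), *Vwa7* (0.087) and *Lsg1* (0.089), little above *Myh11*. For *Vwa7* and *Lsg1* this was below the counting error of 0.10, so these data do not resolve which gene is nearest to *Tagln*. *Cnn1* with *Myocd* (0.11) and *Tagln* with *Lmod1* (0.14) came next among the pairs, both below their counting error of 0.15. Which pair keeps the most constant ratio is therefore not resolved. *Myl9* with *Cald1* was the least constant pair, with an SD of 0.57 where counting error gives 0.066. *Myl9* per *Cald1* was 0.712 in WT2 replicate 2 and 2.72 in WT2 replicate 3, so both ends of the range lay in the same group. To the other 8 genes, *Cald1* had a median SD of 0.41, more than its median to all genes (0.35), and *Tagln* had 0.19, less than its median to all genes (0.32). No test was made of these ratios.

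*Smtn* had genes of striated muscle among its nearest. The first was *Fam213b* (SD 0.029, below its counting error of 0.042), followed by *Atp2a2* (0.038, counting error 0.026), which encodes the calcium pump SERCA2 of the sarcoplasmic reticulum, and *Speg* (0.044), a kinase of striated muscle. *Atp2a2* was at 13143, 10262, 14837 and 11448 normalized CPM in WT2 and at 12703, 13930, 15613 and 12982 in dVEGFR1TK2, and *Smtn* per *Atp2a2* lay between 0.0174 and 0.0188 in the 8 libraries. With *Myh11*, the ratio of *Smtn* ranged from 2.60 to 4.47. *Myh11* also had a gene of striated muscle among its nearest, *Nrap* at rank 3 (0.10, counting error 0.050). For *Cnn1*, *Mylk*, *Myocd*, *Cald1* and *Lmod1* the nearest gene had an SD below the counting error of the pair (for *Cnn1* and *Uchl3* 0.044 against 0.15), so these data do not resolve which gene is nearest. *Myl9* was nearest to *Slc7a1* (0.11, counting error 0.074). By the root mean square difference from the mean profile of the 9 genes over the 8 libraries, the nearest 5 genes were *Lsg1* (0.043), *Impdh2* (0.043), *Ddx56* (0.054), *Hspb7* (a small heat shock protein of heart muscle, 0.055) and *Mafk* (0.055). None of these 5 is a contractile gene of smooth muscle, and the 9 genes themselves ranked from 40 (*Tagln*) to 9266 (*Cald1*) among 13542 genes by this distance.

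**Figure D5:**
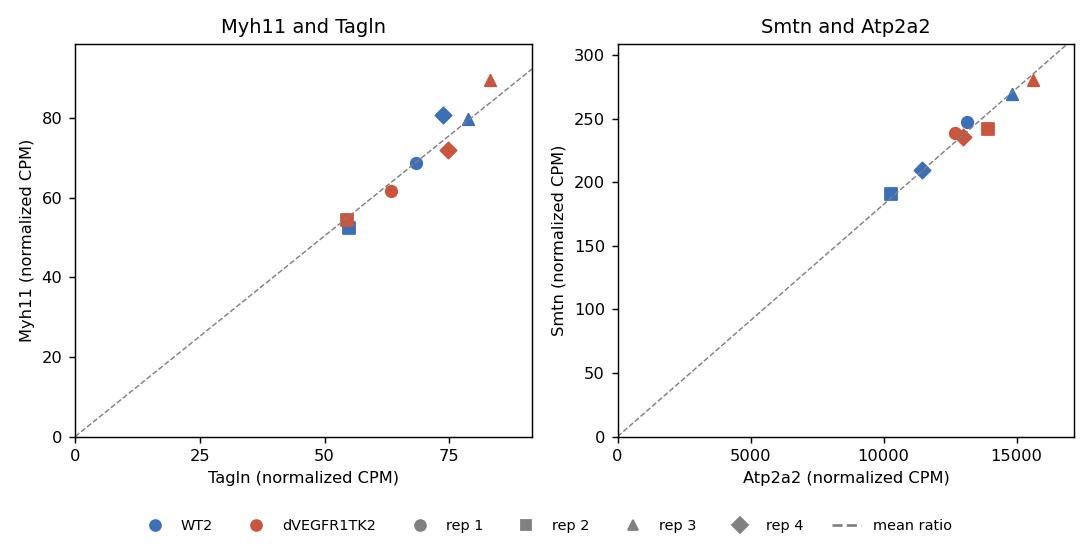
Normalized CPM of *Myh11* against *Tagln* and of *Smtn* against *Atp2a2* in the 8 libraries, both axes from 0, with 1 symbol per replicate number and a dashed line at the mean ratio. Points lie along the line in both panels, with ratios of 0.951 to 1.09 and of 0.0174 to 0.0188, and WT2 and dVEGFR1TK2 points are mixed.

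Other genes of the smooth muscle apparatus were read from 4 lists. Over all tested genes, 50.3% were below 0, and 5.64% were lower and 3.32% higher with an unadjusted p under 0.05. Of 18 other contractile and cytoskeletal genes, 4 were higher and 14 lower in dVEGFR1TK2, 0 were called, 3 had an unadjusted p under 0.05, all lower, and the median log2 fold change was -0.16. These 3 were *Csrp1*, a LIM protein of the cytoskeleton (log2 fold change -0.27, SE 0.10, FDR = 0.506 by the quasi-likelihood test), *Tln1*, which encodes talin and links integrins to actin (-0.22, SE 0.09), and *Myl6*, the essential light chain of smooth muscle and nonmuscle myosin (-0.36, SE 0.15). Their groups did not overlap, and 2.53% of all tested genes were likewise lower without overlap. Without WT2 replicate 3 the value of *Myl6* was -0.20 and its unadjusted p 0.0712, and without dVEGFR1TK2 replicate 2 none of the 3 had an unadjusted p under 0.05. *Acta2*, the smooth muscle actin, was at 211, 234, 582 and 243 normalized CPM in WT2 and at 280, 107, 246 and 310 in dVEGFR1TK2. WT2 replicate 3 stood far above the other libraries, the same library in which *Myl9* was highest. The *Acta2* log2 fold change was -0.43 (SE 0.36, FDR = 0.751 by the quasi-likelihood test) and 0.04 without that library.

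Paralogs of the 9 genes that act in nonmuscle cells or other muscles numbered 15, of which 13 were tested (*Smtnl1* and *Mylk2* had at most 10 counts in any library). Of these, 4 were higher and 9 lower in dVEGFR1TK2, 2 with an unadjusted p under 0.05, both lower, with 0 called and a median of -0.14. Over all tested genes, 50.3% were below 0 and 5.64% were lower at that p. *Tagln2*, the transgelin of nonmuscle cells, was at 163, 212, 156 and 169 normalized CPM in WT2 and at 138, 112, 123 and 145 in dVEGFR1TK2. Every WT2 library lay above every dVEGFR1TK2 library. Its log2 fold change was -0.43 (SE 0.12, FDR = 0.442 by the quasi-likelihood test), while that of *Tagln* was 0.0014, a difference that was not tested. *Myh9*, a nonmuscle myosin heavy chain, was -0.29 (SE 0.12, FDR = 0.528 by the quasi-likelihood test). *Tagln3* had about 1 to 2 normalized CPM in each library and a log2 fold change of -0.56 (SE 0.26). Its groups did not overlap either, and 2.53% of all tested genes were lower without overlap.

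The genes that set the phosphorylation of the light chain and its calcium signal were balanced, with 9 higher and 10 lower of 19 tested, 0 called and a median of -0.0047. *Cacna1c*, the pore of the L-type calcium channel, was the 1 with an unadjusted p under 0.05 (log2 fold change 0.26, SE 0.11, FDR = 0.544 by the quasi-likelihood test), and it is also abundant in cardiomyocytes. *Calm2*, a calmodulin gene, was -0.21 (SE 0.10) and *Kcnmb1*, the smooth muscle subunit of the large-conductance potassium channel, was -0.45 (SE 0.22) on the log2 scale. Of 17 tested genes in the list on transcription of smooth muscle genes, 6 were higher and 11 lower, 0 had an unadjusted p under 0.05, and the median was -0.12. *Srf* was -0.15 (SE 0.13), its coactivator *Mkl1* was -0.22 (SE 0.11), the competing ETS factor *Elk1* was 0.30 (SE 0.16) and the growth factor *Tgfb1* was -0.20 (SE 0.09) on the log2 scale. DESeq2 and the likelihood ratio test, like the quasi-likelihood test, called 0 genes of the 4 lists.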

How the data were processed

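The 8 libraries were LV RNA of mice given angII. The authors trimmed reads with Trim Galore 0.4.4, aligned them to GRCm38 with STAR 2.5.4b, counted them on GENCODE M16 with featureCounts and deposited raw counts per gene in 1 table. The labels describe depletion of ribosomal RNA and the methods of the study poly-A selection. Strand and multi-mapping settings of the counting are not given in the sources used here, so antisense genes and paralogs can add reads to a gene.

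The filter asked for a CPM of 1 or more in 2 or more libraries and left 13542 of 46040 genes. These were fitted in edgeR 4.0.16 (R 4.3.3, quasi-likelihood, glmQLFit and glmQLFTest, TMM factors, no covariates, all 8 libraries), with Benjamini-Hochberg adjustment over all of them. The study used the likelihood ratio test, which was an alternative here beside DESeq2 1.42.0, other scalings, filters and thresholds, a replicate block and each library left out in turn. For normalized CPM, library totals were multiplied by their TMM factors, and the log2 used a prior count of 2. Lengths, coordinates and overlaps came from GENCODE M21. Exact permutation tests covered all 70 ways to form groups of 4 and 4. Counting error of a log2 ratio was taken from the read counts alone.

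The 9 genes and all lists were chosen with earlier results of these data known. Besides the 9 genes, those named were *Acta2*, *Srf*, the 3 genes of each list with the smallest p and the 5 genes nearest to the mean profile. Ratios, their nearest genes, marker sums beside the 9 genes and the named pericyte markers were chosen after the values were seen. On simulated counts, the test reached an FDR under 0.1 for 50% of 46 genes changed 1.5-fold. It did so for 78% of 50 genes with an absolute log2 fold change of 1. The simulation also held 47 genes changed by 1.5 and 49 changed by 2 on that scale. More changed genes make a low FDR easier to reach, and 1 gene was called in these data. The simulated shares can therefore be higher than the test would reach here. Pairs of libraries of 1 group differed beyond sampling noise (chi-square over its degrees of freedom, 6.77 to 49.9 in 12 pairs), so each library was 1 replicate. P-values set the group difference against the spread between these libraries. Same-numbered libraries were not treated as pairs in the main test.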

Additional observations from a re-analysis of the deposited data

Results flagged for a closer look

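In 46 groups of 4 libraries (the 9 contractile genes and the genes named from the lists), 4 had a library that stood apart from the other 3 by Dixon's criterion, and chance gives about 1 in 20. *Cnn1* was low in WT2 replicate 2, at 8.57 normalized CPM. *Smtn* was high in dVEGFR1TK2 replicate 3, at 281. In WT2 replicate 3, *Myl6* was high at 444 and *Acta2* at 582 normalized CPM.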

How the results depend on the processing

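None of the 9 contractile genes was called under any of the 18 alternatives, and the lowest FDR over 144 combinations of gene and alternative was 0.452 (*Myl9* with the replicate block). The count of all genes called was 1 and became 32 with DESeq2, 53 with the likelihood ratio test and 23 without the filter on low counts, and it lay between 1 and 3 with single libraries left out. Directions of values near 0 were not stable. The number of contractile genes lower in dVEGFR1TK2 lay between 3 and 8 and their median log2 fold change between -0.12 and 0.05 with single libraries left out. It was 8 without WT2 replicate 2 or dVEGFR1TK2 replicate 3, and 3 without WT2 replicate 4 or dVEGFR1TK2 replicate 2. *Tagln* turned to -0.0043 with the replicate block and to -0.0061 with total counts. Over the left-out libraries, the log2 fold change lay between -0.10 and 0.10 for *Tagln*, -0.17 and 0.080 for *Myh11*, -0.028 and 0.12 for *Cnn1*, -0.12 and 0.048 for *Lmod1*, -0.032 and 0.15 for *Myocd*, and -0.59 and 0.039 for *Acta2*. *Smtn*, *Mylk*, *Myl9* and *Cald1* kept their direction under all 16 alternatives for single genes, but single libraries set much of their size. *Smtn* (0.12) was 0.043 without WT2 replicate 2, 0.058 without dVEGFR1TK2 replicate 3 and 0.21 without WT2 replicate 3. *Mylk* (-0.15) was -0.071 without dVEGFR1TK2 replicate 2 and -0.088 without WT2 replicate 4. *Cald1* (-0.20) was -0.061 without WT2 replicate 2, and *Myl9* (-0.35) was -0.11 without WT2 replicate 3 and -0.23 without dVEGFR1TK2 replicate 2. The cause of the turns was not tested. The number of contractile genes with an unadjusted p under 0.05 was between 0 and 1, with *Cald1* at -0.32 without WT2 replicate 3 and *Myl9* at -0.51 without WT2 replicate 2.

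Same-numbered libraries of both groups correlated between -0.06 and 0.34 in their deviations, and 1 of 4 numbers correlated best with itself. So few correlations cannot settle whether the numbers pair the libraries, and the main test did not treat them as pairs. With the replicate block 1 of the 9 genes had an unadjusted p under 0.05, *Myl9*, at a log2 fold change of -0.32 (FDR = 0.452 by the quasi-likelihood test), and the count of all genes called was 1. Depth limits *Lmod1* most, with 67 to 130 reads per library.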
